A study of Mus musculus with 48 samples.

Results

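Ribosome biogenesis genes encode the nucleolar factors that make, modify, cut and fold ribosomal RNA and assemble it with ribosomal proteins. A list of 39 such genes was taken, and 38 of them, of 34590 genes counted in all 48 libraries, had a row in every count table and are the members described here. Noc2l was not analysed here. The list was chosen by function, with earlier results of these data known. In each library the members were set against Myc, whose protein is a transcription factor.

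In background terms, RNA polymerase I transcribes the ribosomal RNA precursor in the nucleolus, small nucleolar ribonucleoproteins (snoRNPs) guide its chemical modification, and separate sets of assembly factors build the small and the large subunit. Myc is known to bind many of these genes, usually at the motif CACGTG (an E-box), and to raise ribosome production in growing cells. High MYC marks Group 3 medulloblastoma, the childhood cerebellar tumor that the study models in mice.

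RNA of 48 libraries in 13 groups was sequenced as total RNA with a stranded paired-end protocol, and all groups carry overexpressed Myc. In 44 libraries the cells are p53-/-;p18-/- and in 4, labelled WT GNP Myc Gfi1, wild-type granule neuron progenitors. Cells were infected with retrovirus, sorted by their fluorescent proteins and grown as tumors in the cortex of CD-1 nu/nu mice, so that each library also holds host brain. The labels used here give no age and do not say whether replicates are separate animals, so p-values measure only the spread between these libraries, which may be technical. Set 1 holds the lines 19251, 19554 and 19568, each with 3 Cas9 control and 3 Ezh2 KO (knockout) libraries. Set 2 holds line 19568 with 3 libraries each for Cas9, Ezh2 OE (overexpression), Ezh2 KO and Ezh2 KO + Ezh2 OE. Line 19251 also has 6 control and 8 Gfi1 OE libraries. No group lacks the added Myc, so that its removal could not be compared and the members were set against the Myc level alone. Ezh2 is the methyltransferase of Polycomb repressive complex 2, and Gfi1 is a transcriptional repressor.

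Libraries held between 2687641 and 94733334 counts on genes. The 8 markers of granule neuron progenitors, the labelled source cell, summed to 36.4 to 728 CPM (counts scaled to the library total). By line, Ezh2 measured 68, 72 and 83.4 CPM with Cas9 and 44.3, 38 and 48.7 CPM with Ezh2 KO in line 19568 of set 1, with no overlap, while the arms overlapped in line 19554 (64.2 to 83 CPM with Cas9, 65.3 to 79.2 with Ezh2 KO) and in line 19251 (32.8 to 88.2 and 39.8 to 74.7). Over the 3 lines Ezh2 RNA was not called as different from its control level in the Ezh2 KO groups of set 1 (log2 change -0.31, SE 0.17, adjusted p = 0.699 in edgeR's quasi-likelihood test), fell by 0.95 on the log2 scale in set 2 (adjusted p = 0.00416) and rose 4.49 with Ezh2 OE. Gfi1 measured 107 to 592 CPM in the Gfi1 OE libraries, 0 to 0.273 in the controls and 0.232 to 0.829 in those labelled WT GNP Myc Gfi1. The counts of the last group thus do not show the Gfi1 of their label. A label error and a construct without the counted part of the gene cannot be told apart here. In set 2 the library labelled Cas9 replicate 1 had 5128 CPM of Ezh2 and the one labelled Ezh2 KO + Ezh2 OE replicate 3 had 101, and the numbers in their titles contradict those of their files. Both were left out of the tests, which leaves 2 Cas9 and 2 Ezh2 KO + Ezh2 OE libraries, and one of the latter has a description that names Ezh2 overexpression only. The library of line 19251 labelled Cas9 replicate 1 (set 1) had 9.91 CPM of Myc, a mean log2(CPM + 1) of replication and mitosis genes of 1.77 against 5.91 to 7.65 in the other 47, and the highest score of host brain markers. Gfi1 OE replicate 5 was the shallowest library, with 71.6% of its counted lines unaligned.

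Every member was detected in every library, with a lowest count of 59 and levels from 3.75 to 3620 CPM. The members together took 0.125% of the counts in 19251 Cas9 replicate 1 and 0.722% to 1.22% in the other libraries. A member score, the mean of log2(CPM + 1) over the 38 genes, was 4.73 in that library and 6.54 to 7.64 in the others. The score was lowest of the others in Gfi1 OE replicate 5. Within groups, the SD of a single member on the log2 scale ran from 0.309 to 0.704, with a median of 0.497, and these SDs include the outlying libraries.

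Myc itself varied far more than the members did when summed. In set 1 it measured 9.91, 738 and 315 CPM with Cas9 and 618, 386 and 1145 CPM with Ezh2 KO in line 19251. Line 19554 had 1182, 1060 and 164 CPM with Cas9 and 823, 824 and 869 CPM with Ezh2 KO. Line 19568 had the lowest range, 232, 122.8 and 187 CPM with Cas9 and 168, 177 and 286 CPM with Ezh2 KO. One Cas9 library in line 19554 thus lay far below its other 2, and line 19568 lay below most libraries of the other lines. In set 2, again line 19568, Myc ranged from 188 to 362 CPM over the 10 libraries used. The controls of line 19251 had 439 to 1454 CPM, with a median of 999.9, and Gfi1 OE libraries had 381 to 781, with a median of 494. The 4 libraries labelled WT GNP Myc Gfi1 had 335, 188, 226 and 192 CPM. Over the 45 libraries left without the 3 doubted ones of sets 1 and 2, Myc spanned 11.8-fold and the summed members 1.696-fold. Single members could span more than their sum, with Dkc1 at 68.5 to 622 CPM in these libraries.

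**Figure D1:**
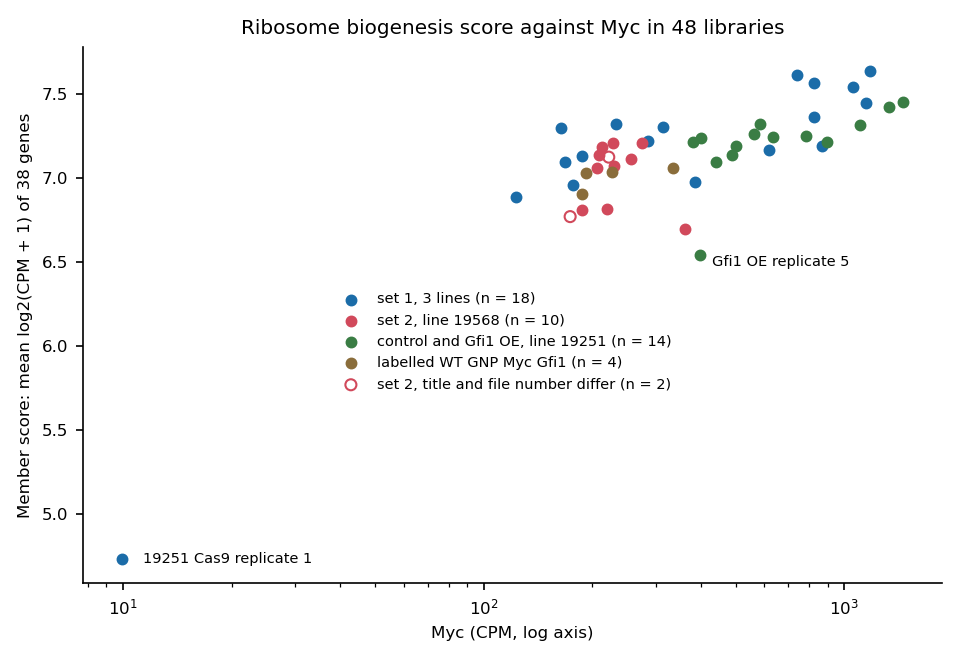
Member score (mean log2(CPM + 1) of 38 genes, y axis) against Myc (CPM, log x axis), with 1 point per library, coloured by set; open circles are the 2 libraries whose title and file numbers differ. Apart from the library labelled 19251 Cas9 replicate 1, at 9.91 CPM of Myc and a score of 4.73, scores lie between 6.54 and 7.64 while Myc runs from 122.8 to 1454 CPM.

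As a description, deviations from the group means of the score and of log2 Myc were correlated over the 17 libraries of set 1 other than 19251 Cas9 replicate 1, with Pearson's r of 0.76 and Spearman's rho of 0.794. Without the 2 libraries farthest in Myc, r was 0.787, and with 19251 Cas9 replicate 1 it was 0.926. Over the 14 control and Gfi1 OE libraries r was 0.527 and rho 0.719, and r was 0.419 without the 2 farthest. In the 10 libraries of set 2, where Myc spanned 1.93-fold, r was -0.041 and rho 0.0667, and r was 0.35 without the 2 libraries farthest in Myc. Both measures share the total of their library, and in a bulk sample fewer tumor cells and less RNA per cell cannot be told apart. The same r in set 1 was -0.00985 for the score of 79 ribosomal protein genes and -0.155 for 24 replication and mitosis genes, and with 19251 Cas9 replicate 1 it was 0.832 and 0.824.

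The relation of each gene to Myc was then estimated with a slope on log2 Myc within groups, over the 45 libraries and 20987 genes, where a slope of 1 means that a gene doubles when Myc doubles. Slopes were positive for 37 of the 38 members, with a median of 0.15, or 10.9% more RNA per doubling of Myc, against a median of -0.02 over all genes tested. Of the members, 10 were called (adjusted p under 0.05 in edgeR's quasi-likelihood test), all with positive slopes. Over all genes 6.94% were called, 2.62% with positive and 4.33% with negative slopes. Utp20 had the largest member slope, which ranked 2362 from the highest among the 20987 genes. All 38 members passed the filter on low counts in this and every other comparison.

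The count rests in part on single libraries. Without the library labelled 19554 Cas9 replicate 3, which had the low Myc of its group, 3 members and 43 of all genes were called, while the median slope was 0.19. Leaving out any of 19251 Cas9 replicates 2 or 3, 19251 Ezh2 KO replicate 3, 19554 Cas9 replicate 1, 19554 Ezh2 KO replicate 1 or 19568 Cas9 replicate 3 of set 2 gave 6, and leaving out Gfi1 OE replicate 5 gave 14, beside 10.9% of all genes. With 19251 Cas9 replicate 1 kept, 36 were called and the median was 0.35, beside 34.8% of all genes called in that fit. Set 1 alone gave 7 members (median 0.20), while set 2 alone and the controls with Gfi1 OE alone each gave 0, with medians of 0.07 and 0.11 and 2 and 3 members at an unadjusted p under 0.05. With the host marker score as a covariate 10 were called, and with the replication score 11.

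Both subunits of RNA polymerase I had called slopes, of which that of Polr1a kept its call in 53 of 56 alternatives and that of Polr1b in 22. Polr1a, which encodes the largest subunit, had a slope of 0.29 (SE 0.06, adjusted p = 0.0052). It measured 352 and 190 CPM in Cas9 replicates 2 and 3 of line 19251, and 264, 279 and 178 CPM in the Cas9 libraries of line 19554. In both groups its order followed that of Myc except for the 2 high-Myc libraries of line 19554. Polr1b, the second-largest subunit, had a slope of 0.24 (SE 0.08, adjusted p = 0.0445) and 171, 165 and 128 CPM in the same 3 Cas9 libraries of line 19554. Of 11 other genes of RNA polymerase I and its initiation factors, 1 was called (Taf1c, a subunit of the promoter selectivity factor, slope 0.24), and their median slope was -0.02.

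Among the snoRNP proteins the box H/ACA set, which guides the conversion of uridine to pseudouridine, had 2 of 3 called. Dkc1, its pseudouridine synthase, had a slope of 0.30 (SE 0.09, adjusted p = 0.0304). It measured 622, 366 and 234 CPM in the Cas9 libraries of line 19554 beside Myc at 1182, 1060 and 164 CPM, and 354 and 230 CPM in Cas9 replicates 2 and 3 of line 19251. The library labelled 19251 Cas9 replicate 1 had 23.5 CPM. Nhp2, a core protein of the same particle, had a slope of 0.19 (adjusted p = 0.0478), and Gar1, another core protein, had 0.12 and was not called. None of the box C/D proteins Fbl (the methyltransferase fibrillarin), Nop56 and Nop58 was called by edgeR, with slopes of 0.08 to 0.16, 1 at an unadjusted p under 0.05 and 0 by limma-voom. Fbl measured 150, 126 and 87.3 CPM in the Cas9 libraries of line 19554, and Nop56 measured 630, 554 and 529. Nolc1, which escorts snoRNPs between nucleolus and Cajal bodies, had a slope of 0.15 and was not called.

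Of the abundant nucleolar proteins, Ddx21, an RNA helicase, had a slope of 0.23 (SE 0.05, adjusted p = 0.0037), and Mybbp1a, a nucleolar Myb-binding protein, 0.18 (adjusted p = 0.0117). Ddx21 measured 882 and 628 CPM in Cas9 replicates 2 and 3 of line 19251 and 628, 630 and 504 CPM in the Cas9 libraries of line 19554. Npm1, the histone chaperone nucleophosmin, had one of the 4 smallest slopes (0.05, SE 0.06) and lay at 2820, 2748 and 2415 CPM in those 3 Cas9 libraries of line 19554. Ncl, nucleolin, had a slope of 0.17 (adjusted p = 0.139), and Gnl3, nucleostemin, 0.10. Ncl measured 489 to 1031 CPM in set 1 without 19251 Cas9 replicate 1, and 1036 to 2033 CPM in the 30 libraries of the later sets, so the ranges of the sets lay close but did not overlap. That difference between sets was not tested, and the share of all genes without such overlap is not given here. Line 19568 has Cas9 and Ezh2 KO libraries in both sets. With Cas9, its Ncl measured 1019, 489 and 631 CPM in set 1 and 1381 and 1498 CPM in set 2. With Ezh2 KO it measured 910, 637 and 981 CPM in set 1 and 1530, 1688 and 1379 CPM in set 2. In the other groups set, line and treatment cannot be told apart.

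Small subunit factors had slopes of 0.06 to 0.31. Utp20, a scaffold protein of the small subunit processome, had the largest of all members at 0.31 (SE 0.06, adjusted p = 0.00125), or 24.1% more RNA per doubling of Myc. It measured 468 and 330 CPM in Cas9 replicates 2 and 3 of line 19251, and 232, 182 and 249 CPM in the Ezh2 KO libraries of that line, again in the order of Myc within each group. It was the 1 called of 12, and in set 2 alone its slope was -0.10 and not called. Tsr1, a late factor of the pre-40S particle, and Nop14, a processome protein, had slopes of 0.06 and 0.07. Heatr1 (Utp10 in yeast), at 0.16, was not called, with 315, 354 and 225 CPM in the Cas9 libraries of line 19554. Among 37 other small subunit factors 8 were called, all positive, with Utp14a and Pwp2 both at 0.32 and a list median of 0.14.

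Large subunit factors included the 1 negative slope, Noc3l, at -0.02 (SE 0.09), which was positive in 8 of 56 alternatives and, with 19251 Cas9 replicate 1 kept, became 0.20 and was called. Rrp1b, which acts in pre-ribosomal RNA processing (slope 0.21, adjusted p = 0.0279), Pes1, a subunit of the PeBoW complex (0.20, adjusted p = 0.00769), and Nop2, a ribosomal RNA methyltransferase (0.17, adjusted p = 0.0407), were the 3 called of 12. Bop1 and Wdr12, which form PeBoW with Pes1, had slopes of 0.13 and 0.16 and were not called. Of 39 other large subunit factors 6 were called, all positive, led by Las1l and Nle1 at 0.32, with a list median of 0.12.

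Lists outside ribosome assembly were measured in the same fit. Of 79 cytoplasmic ribosomal protein genes, which encode the parts that these factors assemble, edgeR called 0, with 2 at an unadjusted p under 0.05, and 35 had positive slopes with a median of -0.01. Of 24 replication and mitosis genes edgeR also called 0, with 3 at an unadjusted p under 0.05 and a median of -0.01. Of 25 other known Myc targets 5 were called, all positive, among them Srm (spermidine synthase, 0.23) and Shmt1 (a one-carbon enzyme, 0.24), with a median of 0.15. The lists were not tested against each other. Host oligodendrocyte markers had 7 of 7 negative slopes (median -0.67) and red blood cell genes 5 of 5 (median -0.65), none of them called by edgeR, with 1 and 3 at an unadjusted p under 0.05. Cortical and inhibitory neuron markers had 9 of 10 positive slopes (median 0.30), and astrocyte markers 3 of 6 (median 0.06), 0 called by edgeR and 0 at an unadjusted p under 0.05. Microglial and macrophage markers had a median of -0.12 and endothelial markers of -0.13. The host lists thus lay on both sides of 0, and their part in the members' slopes was not tested beyond the host covariate above.

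**Figure D2:**
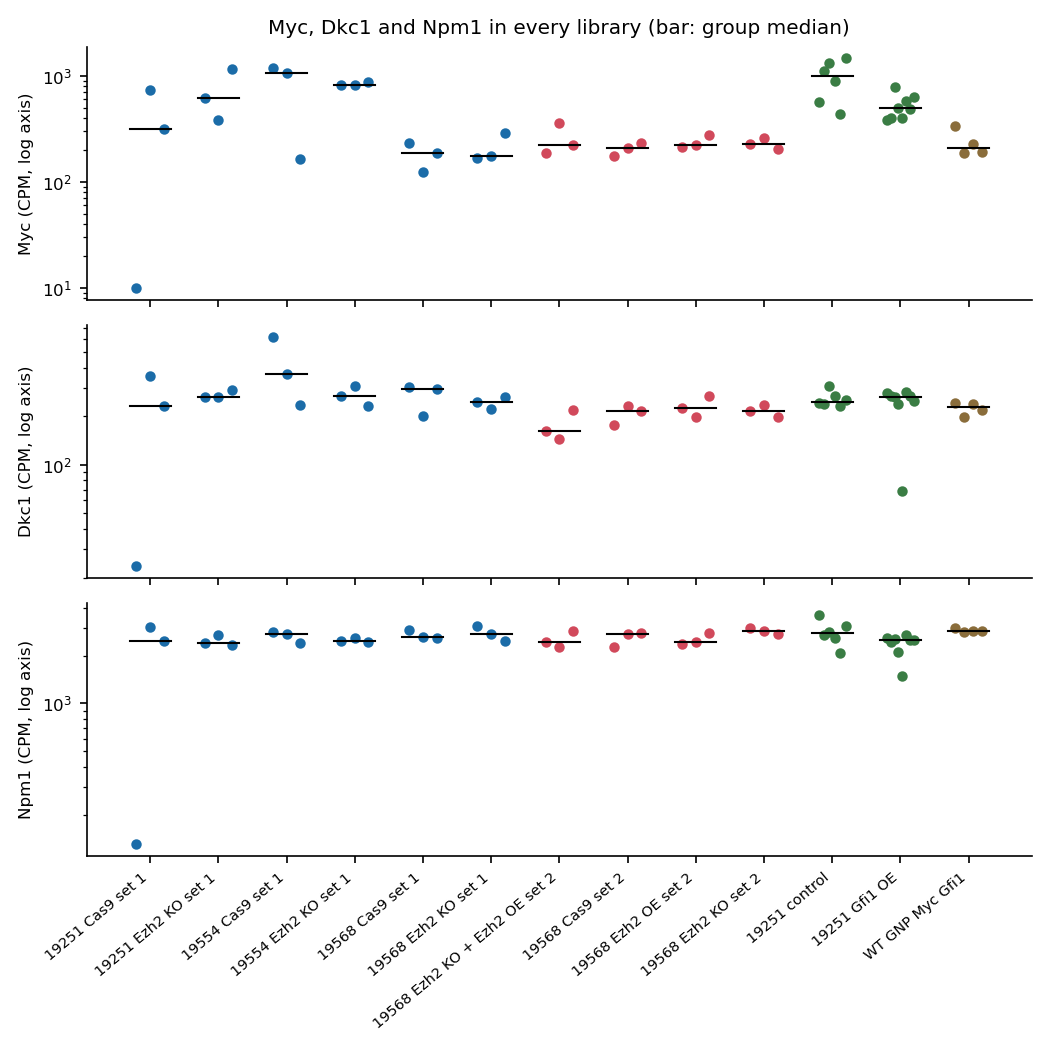
CPM (log y axes) of Myc, Dkc1 and Npm1 in every library by group, with 1 point per library and a bar at the group median. Dkc1 runs from 234 to 622 CPM across the Cas9 libraries of line 19554, where Npm1 runs from 2415 to 2820; the lowest point of each panel is the library labelled 19251 Cas9 replicate 1.

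**Figure D3:**
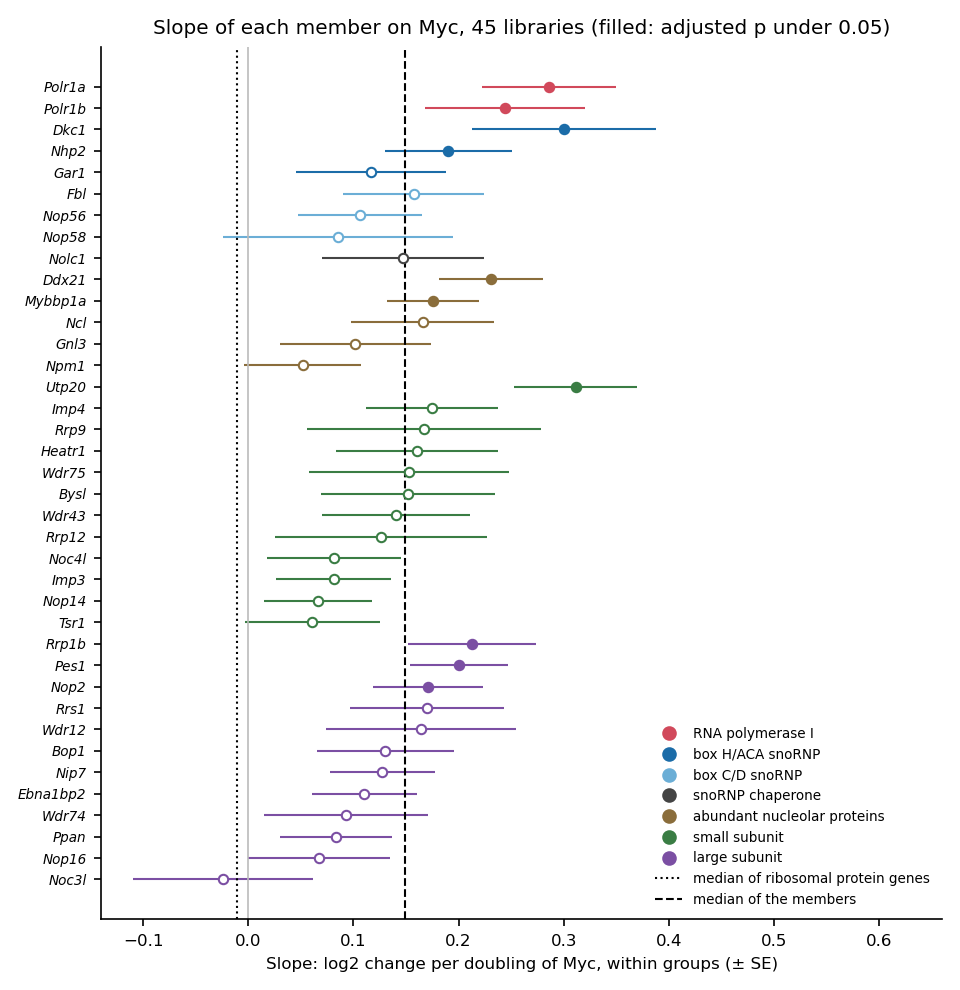
Slope of each of 38 members on log2 Myc within groups (x axis, log2 change per doubling, bars ± SE), ordered by role, with filled points at an adjusted p under 0.05. Points lie from -0.02 (Noc3l) to 0.31 (Utp20); the dashed line is the members' median of 0.15 and the dotted line the ribosomal protein median of -0.01.

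Since a called slope on Myc was positive in each case, the promoters of all members were searched for the E-box CACGTG, which reads the same on both strands. RefSeq windows of 250 bases before to 50 after the start (GRCm38.p6, not the mm9 of the counts) were found for 33 of the 38 members. The motif was in 7 of 33 (21.2%), against 8.09% of 27025 genes with a window, 10.3% of 58 ribosomal protein genes and 5% of 20 replication and mitosis genes. The 7 stretches are shown because 4 of these members had called slopes, with the motif in capitals and up to 12 bases on each side, read 5′ to 3′ on the gene's strand. They run to at most 30 bases and end earlier at the end of the window.
Utp20, chr10:88826765-88826789, minus strand: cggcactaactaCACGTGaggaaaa
Pes1, chr11:3963965-3963994, plus strand: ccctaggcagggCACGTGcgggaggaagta
Mybbp1a, chr11:72441355-72441376, plus strand: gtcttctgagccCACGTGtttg
Nop2, chr6:125131811-125131840, plus strand: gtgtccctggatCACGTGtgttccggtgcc
Imp4, chr1:34439696-34439725, plus strand: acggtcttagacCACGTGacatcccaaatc
Wdr43, chr17:71616220-71616249, plus strand: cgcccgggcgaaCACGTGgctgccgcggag
Tsr1, chr11:74898092-74898121, plus strand: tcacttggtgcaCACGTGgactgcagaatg
The motif began at base 38 after the start in Utp20, 3 in Pes1, 41 in Mybbp1a, 25 in Tsr1 and 18 in Wdr43, at -60 in Nop2 and at -121 in Imp4. Slopes of these 7 had a median of 0.17 (0.06 to 0.31), and those of the 26 members without the motif 0.14 (-0.02 to 0.30), 6 of them called, so the ranges overlapped widely. A match describes these letters only, and the window without one says nothing of Myc binding.

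The first comparison of arms was Ezh2 KO against Cas9 over the 3 lines of set 1. By edgeR 0 of 38 members were called and 0 had an unadjusted p under 0.05, and DESeq2 and limma-voom also called 0, beside 0.413% of all genes called. Log2 changes ran from -0.18 to 0.24 with a median of -0.01, and 18 were positive. The sign of the median depended on the fit, with 33 positive by limma-voom (median 0.11) and 3 positive with Myc as a covariate (median -0.24, 12 at an unadjusted p under 0.05), 0 called in either. The covariate fit keeps 19251 Cas9 replicate 1, at 9.91 CPM of Myc, and was not run without it. Without 19251 Cas9 replicate 1, 34 of 38 were negative, with a median of -0.14, 0 called by edgeR, 7 at an unadjusted p under 0.05 and a lowest adjusted p of 0.0678. Without 19251 Cas9 replicate 2, 35 were positive, with a median of 0.08. The 3 with the lowest unadjusted p were Ncl (0.24, SE 0.25), Polr1a (-0.18, SE 0.24) and Nip7, a pre-60S factor (-0.12, SE 0.17). Ncl measured 1019, 489 and 631 CPM with Cas9 and 910, 637 and 981 CPM with Ezh2 KO in line 19568, so the arms overlapped. Myc changed by 0.43 (SE 0.50) in the same fit.

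Within single lines edgeR again called 0 members in each, with 0 at an unadjusted p under 0.05 and 0 by DESeq2, all 18 libraries kept. The share of all genes called was 0.259% in line 19251, 0.481% in line 19554 and 0.027% in line 19568. The members' median change was 0.13 in line 19251 and -0.27 there without Cas9 replicate 1, where 36 of 38 were negative and edgeR called 0, with 11 at an unadjusted p under 0.05, so that the direction rests on that library. It was -0.16 in line 19554, and -0.03 without its Cas9 replicate 1, -0.06 without its Ezh2 KO replicate 3 and -0.25 without its Cas9 replicate 3 or Ezh2 KO replicate 2. In line 19568 it was -0.04, and ran from -0.14 without its Cas9 replicate 2 to 0.12 without its Cas9 replicate 1, so that its sign too rests on single libraries. In line 19554 Dkc1 had a change of -0.58 (SE 0.57) and 267, 309 and 230 CPM with Ezh2 KO, so 2 of its 3 Ezh2 KO libraries lay inside the range of the Cas9 libraries and 1 just below it. The effect of Ezh2 KO was not called as different between lines for any member (0.0162% of all genes called), and 0 had an unadjusted p under 0.05 for that difference by edgeR, with 0 called by DESeq2.

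Over both arms the lines differed in 1 member, beside 11.5% of all genes called. Bop1, the PeBoW subunit, had 159, 197 and 163 CPM with Cas9 and 148, 168 and 109 CPM with Ezh2 KO in line 19554. In line 19568 it had 71.5, 67.7 and 86.1 CPM with Cas9 and 81.5, 72.2 and 105 CPM with Ezh2 KO. All 6 libraries of line 19554 lay above all 6 of line 19568. Bop1 was named for its call, so this adds nothing to the test, and the share of all genes without overlap is not given here. Line 19251 had 28.8, 145 and 119 CPM with Cas9 and 72.5 to 138 CPM with Ezh2 KO. Its adjusted p over the 3 lines was 0.0377, and the log2 change from line 19251 was 0.70 in line 19554 and -0.26 in line 19568. Without 19251 Cas9 replicate 1, 8 members were called beside 26.1% of all genes. With Myc as a covariate and that library kept, 9 were called beside 18.4%. Leaving out 19251 Ezh2 KO replicate 1, any Cas9 library of line 19554 or 19568, or replicate 1 or 2 of Ezh2 KO in those 2 lines gave 0. Titles of set 1 carry a different number for each line, so line and any batch behind that number cannot be told apart.

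In set 2, where line 19568 was studied again, 3 of 38 members were called for Ezh2 KO against Cas9, beside 9.1% of all genes. One was higher and 2 lower, beside 5.88% and 3.23% of all genes. Bysl, a pre-40S factor, had 49.8, 44.5 and 42.9 CPM with Ezh2 KO and 25.9 and 24.6 CPM with Cas9, a change of 0.76 (SE 0.15, adjusted p = 0.0154). Nop14 had 88.3, 83.2 and 79.5 CPM with Ezh2 KO and 121 and 112 CPM with Cas9 (-0.57, SE 0.10, adjusted p = 0.00921). Wdr43, a processome protein, had 285, 286 and 282 CPM with Ezh2 KO and 398 and 378 with Cas9 (-0.54, SE 0.10, adjusted p = 0.0136). In all 3 genes the groups did not overlap, which adds nothing to the test that picked them. The library labelled Cas9 replicate 1, left out, had 30.2 CPM of Bysl, 64.1 of Nop14 and 252 of Wdr43. Kept under its label, as in the fit named next, it puts 5128 CPM of Ezh2 into the Cas9 arm. By Ezh2 level that fit mixes arms, so it cannot decide whether the calls hold. With both contradictory libraries kept 0 members were called, and 0 without either Cas9 library, where the lone Cas9 library is assumed to vary like the other groups. In line 19568 of set 1, which shares no library with set 2, the values were 0.20 for Bysl, -0.26 for Nop14 and -0.03 for Wdr43, and none was called.

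The median over members in that comparison was -0.09, with 27 of 38 negative, against -0.00 over all genes, and 0.00 with 18 negative when both contradictory libraries were kept. Fbl measured 105, 105 and 97.5 CPM with Ezh2 KO and 98.9 and 96.4 with Cas9. Npm1 measured 2991, 2866 and 2738 CPM with Ezh2 KO and 2735 and 2754 with Cas9, so that the groups of both genes lay close or overlapped. Outside the members, 5 of 37 other small subunit factors were called, all lower, such as Wdr3 (-0.59), and 5 of 39 large subunit factors, all lower, such as Cebpz (-0.66). Of the ribosomal protein genes edgeR called 0, with 3 at an unadjusted p under 0.05, and their median was 0.07. Endothelial markers were positive in 6 of 7 with Cdh5 called, and microglial and macrophage markers negative in 9 of 10, and their part in the members' changes was not tested.

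With Ezh2 OE against Cas9, edgeR called 0 members, 0 had an unadjusted p under 0.05, and DESeq2 called 0, beside 0.00566% of all genes (1 of 17662). Changes ran from -0.22 to 0.13 with a median of -0.05. Wdr43 had the lowest unadjusted p (-0.21, SE 0.10), followed by Gnl3 (-0.22, SE 0.11) and Nop14 (-0.19, SE 0.10). Heatr1 measured 243, 180 and 222 CPM with Ezh2 OE and 219 and 217 CPM with Cas9, so the Cas9 libraries lay inside the other range.

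Adding Ezh2 back to the knockout went with lower values of every member, although none was called by edgeR. All 38 changes were negative, from -0.56 to -0.04, with a median of -0.33 against -0.00 over all genes. Beside the absence of called members, 1.21% of all genes were called. Of the members 22 had an unadjusted p under 0.05, and the share of all genes at that threshold is not given here. The score was 7.21, 7.11 and 7.06 with Ezh2 KO and 6.81 and 6.70 with Ezh2 KO + Ezh2 OE, with no overlap. Ezh2 OE without knockout had 7.18, 6.82 and 7.21, so a low score was not particular to the add-back group. The library labelled Cas9 replicate 1, which has the Ezh2 level of the add-back group, had a score of 6.77, and the one labelled Ezh2 KO + Ezh2 OE replicate 3 had 7.13.

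Rrp1b came nearest to the threshold, with 110, 106 and 105 CPM with Ezh2 KO and 72.8 and 69.1 with Ezh2 KO + Ezh2 OE (-0.53, SE 0.10, adjusted p = 0.0506). Polr1b had 113, 108 and 104 CPM with Ezh2 KO and 76.7 and 66.3 CPM after add-back (-0.54, adjusted p = 0.104). Bysl had 32.2 and 27.5 CPM after add-back (-0.56, adjusted p = 0.107). In these 3 genes the libraries of both groups did not overlap. They were named for their low p, so this adds nothing to it, and the share of all genes without overlap is not given here. Dkc1 went from 216, 235 and 199 CPM to 161 and 145 CPM, and Nop56 from 478, 449 and 438 CPM to 378 and 320 CPM.

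DESeq2 called 9 members in this comparison beside 5.99% of all genes, a fit without the low-count filter 8 beside 5.63%, and limma-voom 1 beside 1.61%. Without Ezh2 OE replicate 1 edgeR called 1, and without Ezh2 OE replicate 3 it called 2. With both contradictory libraries kept under their labels, which mixes arms by Ezh2 level, 0 were called, 34 were negative and the median was -0.17. Other lists had these values: 24 of 24 replication and mitosis genes were negative (median -0.27, 0 called by edgeR, 8 at an unadjusted p under 0.05), 24 of 25 other Myc targets (median -0.34, with Shmt1 called), and 71 of 79 ribosomal protein genes (median -0.11). Myc itself was 188 and 362 CPM after add-back and 229, 256 and 206 CPM with Ezh2 KO (0.32, SE 0.26, not called). Microglial and macrophage markers were positive in 10 of 10 (median 0.73) and endothelial markers in 7 of 7 (median 0.44), and their part in the members' values was not tested. Ezh2 KO + Ezh2 OE and Cas9 were each compared with the same Ezh2 KO libraries, so the direction of one comparison does not stand apart from the other.

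**Figure D4:**
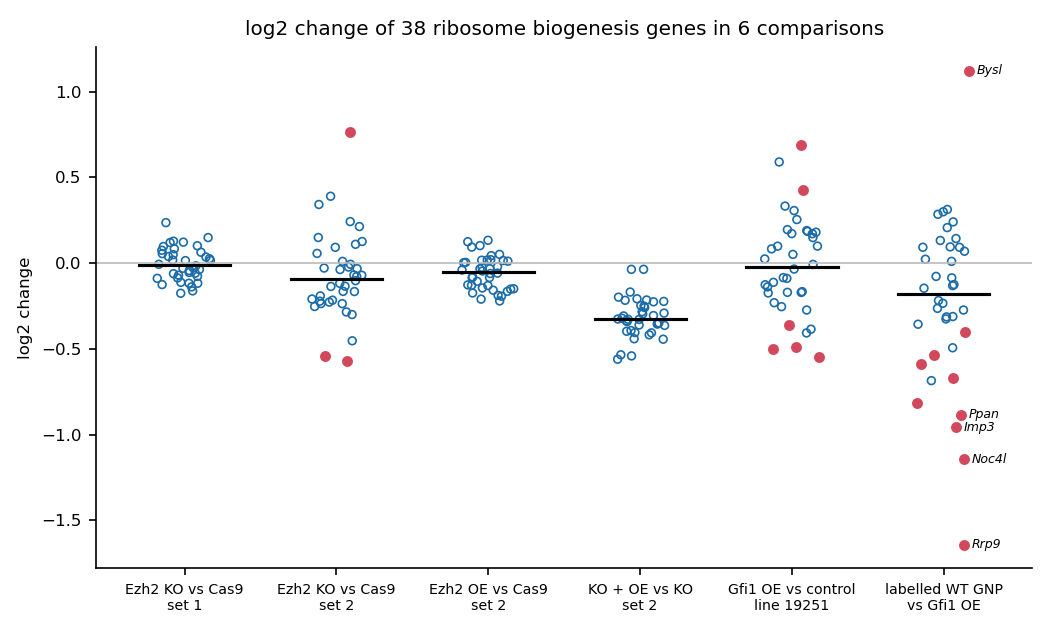
Log2 change (y axis) of each of 38 members in 6 comparisons, with filled points at an adjusted p under 0.05, open points otherwise and a bar at the members' median. The add-back of Ezh2 has all 38 points below 0 and none called, while the other comparisons have points on both sides; comparisons of set 2 share groups, as do the last 2.

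In line 19251, Gfi1 OE against control called 6 of 38 members, beside 24.6% of all genes. The members' share was thus below that of all genes tested. Higher were 2 (11.1% of all genes) and lower 4 (13.5%), and the median change was -0.02. The log2 change of Myc was -0.73 (adjusted p = 0.0361, SE 0.24), with overlapping libraries.

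The 2 that rose act in small subunit assembly. Imp3, a U3 snoRNP protein, ranged from 44.6 to 62.4 CPM in the controls (median 52.9) and from 61.8 to 89.2 CPM with Gfi1 OE (median 79.3), a change of 0.69 (SE 0.09, adjusted p = 9.12e-05). Gfi1 OE replicate 5, the lowest of its group, lay just below the highest control, and the other 7 lay above all controls. Noc4l, a pre-40S export factor, ranged from 38.3 to 59.6 CPM in the controls (median 49.5) and from 46.6 to 66.3 CPM with Gfi1 OE (median 60.8), and the groups overlapped (0.43, SE 0.14, adjusted p = 0.0328).

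Of the 4 that fell, Gar1 and Nhp2 belong to the box H/ACA snoRNP. Gar1 ranged from 33.2 to 58.3 CPM in the controls and from 24.6 to 32.7 CPM with Gfi1 OE, with no overlap (-0.55, SE 0.17, adjusted p = 0.0286). Nhp2 ranged from 149 to 267 CPM and from 66.2 to 146 CPM, also with no overlap (-0.50, SE 0.13, adjusted p = 0.0123). Their partner Dkc1 had a median of 246 CPM in the controls and 263 with Gfi1 OE and was not called. Rrp1b had 98.2 to 135 CPM in the controls and 32.4 to 92.5 CPM with Gfi1 OE (-0.49, SE 0.14, adjusted p = 0.0195), again apart. Gar1, Nhp2 and Rrp1b were named for their calls, so the lack of overlap adds nothing to the test. The share of all genes without overlap is not given here. The lowest values of Nhp2 and Rrp1b came from Gfi1 OE replicate 5, the shallowest library. Pes1 ranged from 201 to 329 CPM and from 137 to 221 CPM, with overlap (-0.36, SE 0.11, adjusted p = 0.0321). Bop1, its partner, ranged from 94.1 to 167 CPM in the controls and from 96.1 to 135 with Gfi1 OE and was not called.

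Without Gfi1 OE replicate 5, 9 members were called beside 33.9% of all genes. With Myc as a covariate 2 were called beside 16.6%, and without the low-count filter 2 beside 12.7%. Of those named, only Imp3 kept its call in all 19 alternatives, leaving out each library included. Npm1 ranged from 2082 to 3620 CPM in the controls and from 1492 to 2696 CPM with Gfi1 OE. Ncl ranged from 1327 to 1804 and from 1412 to 2033 CPM, Fbl from 55.5 to 128 and from 87 to 104, and Heatr1 from 159 to 245 and from 79.3 to 248. The groups of these 4 genes overlapped and none was called.

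Ribosomal protein genes were measured in the same libraries. Of 79, 32 rose and 0 fell by edgeR, with a median of 0.48 and, for example, Rps19 at 1.04. Without Gfi1 OE replicate 5, 60 rose and the median was 0.51. Their mean log2(CPM + 1) ranged from 9.1 to 9.4 in the controls and from 8.9 to 9.86 with Gfi1 OE, where replicate 5 was lowest. Replication and mitosis genes had 1 called higher (Mcm2, 0.60) and 5 lower (such as Ccna2, -0.63), and of the other Myc targets 5 fell, led by Shmt1 (-0.86) and Ldha (-0.72). Host endothelial markers were positive in 7 of 7, none called by edgeR, with 2 at an unadjusted p under 0.05, and their part was not tested.

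**Figure D5:**
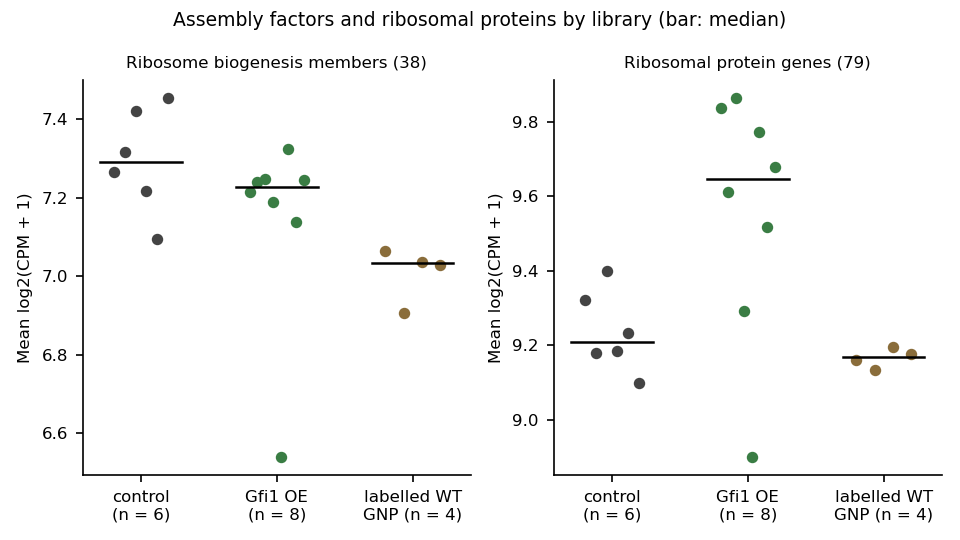
Mean log2(CPM + 1) of the 38 members (left) and of 79 ribosomal protein genes (right) per library (points) and group median (bars), in the controls and Gfi1 OE libraries of line 19251 and the 4 labelled WT GNP Myc Gfi1; the y axes differ. The member scores of controls and Gfi1 OE overlap, and the lowest point of the Gfi1 OE group is replicate 5 in both panels.

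The last comparison set the 4 libraries labelled WT GNP Myc Gfi1 against the 8 Gfi1 OE libraries of line 19251, which differ in genotype, in line and, as measured, in Gfi1, so that these cannot be told apart. Of the members 10 were called, beside 48.7% of all genes, with 1 higher (21.9% of all genes) and 9 lower (26.8%). The median change was -0.18, against -0.08 over all genes. Without Gfi1 OE replicate 5, 24 members (63.2%) were called, beside 65.8% of all genes.

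Bysl was the 1 that was higher, with 59.5, 51.8, 59.2 and 66 CPM in these 4 and 19.8 to 37.8 CPM with Gfi1 OE (1.12, SE 0.15, adjusted p = 5.37e-05). The groups lay far apart. Rrp9, a U3 snoRNP protein, had 41.1, 36.6, 40.4 and 41.7 CPM against 80.3 to 253 CPM (-1.64, SE 0.38, adjusted p = 0.00292), and its highest value was in Gfi1 OE replicate 5. Noc4l had 25.6 to 31.8 against 46.6 to 66.3 CPM (-1.14, SE 0.14, adjusted p = 2.46e-05). Imp3 had 39.4 to 43 against 61.8 to 89.2 CPM (-0.96, SE 0.10, adjusted p = 5.02e-06).

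Ppan and Ebna1bp2, both large subunit factors, changed by -0.88 (SE 0.10) and -0.81 (SE 0.12) with no overlap between groups. Lack of overlap adds nothing to the calls that picked these genes and Bysl, Rrp9, Noc4l and Imp3. Its share over all genes is not given here. Nolc1 changed by -0.67 (SE 0.14) and its groups overlapped through Gfi1 OE replicate 5 at 218 CPM. Imp4, Ncl and Nop2 were the other 3 called lower. Imp3 and Noc4l, higher with Gfi1 OE than in the controls, were lower here, and both comparisons share the Gfi1 OE libraries. Myc was lower as well (-1.20, SE 0.23, adjusted p = 0.000997), and with Myc as a covariate 5 members were called, beside 19.5% of all genes. Of the ribosomal protein genes 40 were lower and 1 higher (median -0.56), and without Gfi1 OE replicate 5, 61 lower and 1 higher. Of 6 astrocyte markers 3 were called lower and 1 higher, with 4 of 6 negative. Oligodendrocyte markers summed to 95.7 to 202 CPM in the 4 libraries and 212 to 502 CPM with Gfi1 OE, with no overlap, and Mbp and Cnp were called lower. Of 10 cortical and inhibitory neuron markers 3 were called lower and 1 higher. The part of these markers in the members' changes was not tested.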

How the data were processed

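The deposited tables hold whole-number counts of reads per gene symbol, in the form that HTSeq writes, made by the authors. The submitters' processing notes name CASAVA 1.7, STAR, BWA, HTSeq, limma, R 3.2.3 and mm9. The role of each tool, the annotation and the strand setting are not given in the sources used here, so that overlapping and antisense genes may share counts. Lines that name no gene were left out of totals; they held 19.6% to 42.6% of reads without a gene and 2.70% to 71.6% unaligned. Totals on genes ran from 2687641 to 94733334, and a lower total gives less precise values.

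CPM were computed from the total on genes. Tests used edgeR 4.0.16 in R 4.3.3 (TMM scaling, filterByExpr, quasi-likelihood F-test, Benjamini-Hochberg over all genes tested, called at an adjusted p under 0.05). They had a line term over set 1 and group means elsewhere. The slope was on log2(Myc CPM + 1) with TMM-scaled CPM, with group means and 45 libraries. The steps were tested on simulated data. Of 1128 pairs of libraries 0 were identical. No value column of other samples was found.

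Alternatives were RLE scaling, no low-count filter, limma-voom (limma 3.58.1), DESeq2 1.42.0, Myc as a covariate, a replicate block, the contradictory libraries kept and each library left out. Library values were given for Myc and 8 members, at least 1 for each of the main roles. Each comparison names up to 6 called members per direction by size of change, or the 3 with the lowest unadjusted p where none was called, and for the slope the 6 largest and 4 smallest. Other members are named by role and partnership, chosen after their values were seen. The members and the other lists were chosen with earlier results of these data known.

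Replicate numbers come from the titles, except for Gfi1 OE, whose titles repeat 1 number and were numbered in order. Same-numbered Cas9 and Ezh2 KO libraries deviated together in line 19554 (r of 0.148, 0.13 and 0.32 over 14265 genes) and in line 19568 of set 1 (0.236, 0.512 and 0.245). They did not in line 19251 (-0.182, -0.00977 and -0.222), and no comparison of set 2 has 3 pairs. The reported fits took no libraries as pairs, and the replicate number entered only as a block among the alternatives. Promoter windows came from RefSeq on GRCm38.p6, another build than that of the counts, and were matched by symbol.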

Additional observations from a re-analysis of the deposited data

Results flagged for a closer look

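Single libraries were checked against their group only in groups of 4 to 10, so that 19251 Cas9 replicate 1, in a group of 3 with a member score of 4.73, was not checked. The values that stood apart came from 1 library, Gfi1 OE replicate 5 of line 19251, which has the fewest counts. In each case the gap from this library to the nearest of the other 7 was a larger part of the group's whole range than Dixon's 95% critical value for 8 samples. The member score was 6.54 there and 7.14 to 7.33 in the others. Among the genes given library by library, Nop56 had 306 CPM against 451 to 573, Dkc1 68.5 against 237 to 284, Polr1b 48.4 against 108 to 118 and Heatr1 79.3 against 189 to 248. Ncl was high, at 2033 CPM against 1412 to 1694. Of 33 groups of values checked 6 met this rule, where chance gives about 1 in 20, and the 6 share 1 library. The cause was not tested.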

How the results depend on the processing

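In set 1, Ezh2 KO against Cas9 gave 0 called members under every alternative, over the lines together, within each line and for the difference between lines, and so did Ezh2 OE against Cas9. Of the alternative values for members named in a comparison, 1190 kept direction and side of the threshold, 114 lost the call, 13 gained it and 13 reversed. In set 2 alone the slopes of Utp20 and Tsr1 were -0.10 (adjusted p = 0.973 by edgeR) and -0.25 (0.968). The slope of Noc3l was 0.20 with 19251 Cas9 replicate 1 kept (0.0308), and ran from -0.0763 to 0.0353 with 1 library left out, 7 of these positive and 0 called. The slope of Nop14 was -0.0216 in the control and Gfi1 OE libraries without Gfi1 OE replicate 5, and its change with Ezh2 OE was 0.0702 with both contradictory libraries kept. The change of Polr1a over set 1 ran from -0.308 to 0.026 with 1 library left out, positive without 19251 Cas9 replicate 2 alone. The causes were not tested.

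Counts of called members moved as follows, where the fit with both contradictory libraries kept mixes arms by Ezh2 level. The difference between lines (1) became 0 without the low-count filter, 9 with Myc as a covariate and 0 to 8 with 1 library left out. Ezh2 KO against Cas9 in set 2 (3) became 5 by DESeq2, 0 with both contradictory libraries kept and 0 to 4 with 1 left out. Ezh2 KO + Ezh2 OE against Ezh2 KO (0) became 8 without the filter, 1 by limma-voom, 9 by DESeq2 and 0 to 2 with 1 left out. Gfi1 OE against control (6) became 2 without the filter, 2 with Myc as a covariate and 4 to 9 with 1 left out. WT GNP Myc Gfi1 by label against Gfi1 OE (10) became 17 by DESeq2, 5 with Myc as a covariate and 8 to 24 with 1 left out. The slope on Myc (10) became 6 without the filter, 36 with 19251 Cas9 replicate 1 kept, and 3 to 14 with 1 left out. It became 0 in set 2 alone, 0 in the control and Gfi1 OE libraries alone, and 0 in the latter without Gfi1 OE replicate 5, an alternative chosen after seeing the data, as was leaving that library out of the ribosomal protein counts.

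With the replicate number as a block, 0 members were called over set 1, 0 in each line, 1 for the difference between lines, 0 for the difference in the effect, 3 for Ezh2 KO, 0 for Ezh2 OE and 0 for add-back in set 2, so that the block changed no count of called members. Of all genes it called 45 in place of 68 over set 1, 5 in place of 48 in line 19251, 17 in place of 89 in line 19554, 0 in place of 5 in line 19568, 1 in place of 3 for the difference in the effect, 889 in place of 1608 for Ezh2 KO in set 2 and 79 in place of 213 for add-back. No paired analysis was possible for the Gfi1 libraries because their titles give no separate numbers.

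Counts over all genes also moved by more than 1.5 times, within these ranges over the alternatives other than a left-out library. They were 45 to 289 for Ezh2 KO over set 1 (68 in the reported fit), 1489 to 3688 for the difference between lines (1887), 5 to 842 in line 19251 (48), 17 to 556 in line 19554 (89), 0 to 76 in line 19568 (5) and 1 to 269 for the difference in the effect (3). In set 2 they were 171 to 2984 for Ezh2 KO (1608), 0 to 146 for Ezh2 OE (1) and 69 to 1761 for add-back (213). They were 3439 to 9817 for WT GNP Myc Gfi1 by label against Gfi1 OE (8413) and 0 to 7337 for the slope (1457). Low genes are least precise in Gfi1 OE replicate 5, at 2687641 counts.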
